A study of Homo sapiens with 16 samples.

Results

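The AP-1 transcription factors were followed across 16 RNA-seq libraries of A431 cells, a human epidermoid carcinoma line, and HaCaT cells, an immortalised human keratinocyte line. The members were taken by symbol from the deposited count table. They are FOS, FOSB, FOSL1, FOSL2, JUN, JUNB, JUND, ATF3 and BATF3, which make up 9 of its 26229 listed genes. In each line the siRNA arm held 1 library with a control siRNA (siCTRL) and 3 with YAP1 knocked down by siRNA (siYAP). The vector arm held 1 library with the empty expression vector and 3 with YAP5SA, a constitutively active YAP1 mutant. Cells of the siRNA arm carried no vector and cells of the vector arm received no siRNA. The siRNAs were given in 2 rounds 24 h apart, and RNA was taken 48 h after the second round. The promoter of the vector and the time of its transfection are not given in the sources used here. Each control is 1 library, so the spread between control cultures could not be measured and was assumed to equal that of the treated groups.

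AP-1 is not a single protein but a family of dimers. FOS, FOSB, FOSL1 and FOSL2 cannot pair with themselves and bind DNA with a partner from the JUN group. JUN, JUNB and JUND can also pair with each other, and ATF3 and BATF3 are related basic leucine zipper proteins that join JUN proteins and often repress. The dimers read the AP-1 site TGACTCA or the cAMP response element (CRE) TGACGTCA. In epidermal cells they are known for control of proliferation, of differentiation genes such as involucrin and of matrix proteases. YAP itself does not bind DNA and acts through TEAD factors, which read CATTCC, and AP-1 and TEAD sites often share enhancers.

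Because several of these genes are known to be controlled in part by proteins of the same family, the sites of this kind in their own promoters are shown first. The promoter table from RefSeq (GRCh38.p14) covers 250 bases before and 50 bases after a gene's start, and held 8 promoters of 7 members. FOSL1 and BATF3 were not in it. The letters searched on both strands are in capitals below. The variant TGACATCA and the 6-base core TGACGT, which is part of the CRE, were added after the sequences had been seen.
JUN, chr1:58784081-58784140, minus strand, TGACATCA at -67 to -60 from the start: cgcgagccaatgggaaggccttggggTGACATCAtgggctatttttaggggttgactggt
ATF3, chr1:212565258-212565317, plus strand, TGACATCA at -123 to -116: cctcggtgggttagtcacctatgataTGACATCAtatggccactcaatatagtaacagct
JUND, chr19:18281789-18281848, minus strand, TGACGTCA at -200 to -193: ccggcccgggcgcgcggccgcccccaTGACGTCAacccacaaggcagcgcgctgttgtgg
FOS, chr14:75278737-75278796, plus strand, TGACGT at -64 to -59: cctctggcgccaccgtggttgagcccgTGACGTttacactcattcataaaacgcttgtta
FOSB, chr19:45467909-45467968, plus strand, TGACGT at -60 to -55: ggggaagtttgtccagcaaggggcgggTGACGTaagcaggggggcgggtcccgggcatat
FOSL2, chr2:28392851-28392880, plus strand, TGACTCA at 4 to 10 after the start: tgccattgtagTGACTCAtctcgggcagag

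FOSL2 also held TGACGT at -66 to -61, and JUND held a further match at -87 to -82. Among all 35116 promoters of the table, TGACTCA was in 4.95%, TGACGTCA in 1.85%, TGACATCA in 2.61% and TGACGT in 7.98%. CATTCC was in 14.03% of them and had no match in the 8 promoters of the members. These are matches of letters in a short window, and no binding was measured in this study.

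The libraries held 18115624 to 46791673 assigned read pairs. YAP1 fell with siYAP, from 94.2 to between 5.04 and 6.99 CPM (counts-per-million of the assigned reads, library totals scaled by TMM) in A431 and from 254 to between 21.6 and 23.2 CPM in HaCaT. With YAP5SA it lay at 1494 to 3244 CPM in A431 and at 7546 to 22244 CPM in HaCaT, against 124 and 423 CPM with empty vector. EGFR, which is amplified in A431, was at 750 CPM or more in every A431 library and at 557 CPM or less in every HaCaT library. The siRNA arm and the vector arm of HaCaT stood apart from each other, with a Pearson r of log2 CPM over 12240 genes of 0.788 to 0.872 for pairs of libraries across the arms, against 0.938 to 0.971 across the arms of A431 and 0.957 to 0.993 within an arm of HaCaT. With A431 libraries r was 0.759 to 0.856 for the HaCaT vector arm and 0.704 to 0.784 for the HaCaT siRNA arm. All 8 keratinocyte markers were above 3 counts in each group, and their summed level was 2272 to 3914 CPM in the siRNA arms and 4381 to 8073 CPM in the vector arms. In each line KRT5 and KRT6A were higher in every vector-arm library than in any siRNA-arm library. Not all 8 markers went this way. ITGB4 in HaCaT was at 305 to 421 CPM in the siRNA arm and at 79.2 to 222 CPM in the vector arm. Summed fibroblast markers (6 genes, COL1A2 at 0 in every group except HaCaT with YAP5SA, where it reached 0.026 CPM) were 10.2 to 27.9 CPM in the siRNA arms and 0.66 to 5.46 CPM in the vector arms, and endothelial markers (3 genes) 15.98 to 59.1 and 1.18 to 5.92 CPM. Most of the fibroblast sum was LUM (8.98 to 12.7 CPM) in the A431 siRNA arm. In the HaCaT siRNA arm it was DCN (11.3 to 14.2 CPM) and LUM (6.15 to 9.28 CPM). In the HaCaT vector arm DCN and LUM did not exceed 0.076 and 0.102 CPM. Leukocyte markers (5 genes) were 83.5 to 172 CPM in A431 and 8.89 to 33.6 CPM in HaCaT, and melanocyte markers (3 genes) stayed at 0.89 to 3.78 CPM with TYR at 0. Most of the leukocyte sum was CD68 (82.1 to 170 CPM in A431), while PTPRC and CD3E did not exceed 0.255 and 0.129 CPM in any group. Most of the endothelial sum of the siRNA arms was CDH5 (51.8 CPM with siCTRL in HaCaT, where PECAM1 was at 0.273 CPM). The part of these differences in the results below was not tested. In libraries from whole cultures, fewer cells of a type and less RNA per cell cannot be told apart.

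No tested AP-1 gene was called with siYAP in either line, and FOSL1 and FOSB were called higher with YAP5SA in HaCaT. For so few genes, the counts with siYAP do not set the members apart from the shares of all genes given below. The FOSB call rests on a control library with few reads of that gene. A gene was called at a false discovery rate (FDR) under 0.05 over all 14673 tested genes and a mean level above 1 on the log2 CPM scale, with the quasi-likelihood test of edgeR. BATF3 did not pass the count filter, so 8 members were tested. With siYAP in A431, 0 of 8 were called, against 5.6% of all tested genes (1.81% higher, 3.78% lower). With siYAP in HaCaT, 0 of 8 were called, against 5.67% (2.37% higher, 3.3% lower). In each line 1 member had an unadjusted p under 0.05, FOSB in A431 and ATF3 in HaCaT, and DESeq2 called 0. Over all genes 22.2% and 20.4% had such a p, and DESeq2 called 1365 and 1315 genes. Lying wholly on one side of a single control was common, since all 3 siYAP libraries did so for 72.4% of all tested genes in A431 and 69.7% in HaCaT, and all 3 YAP5SA libraries for 53.4% and 66.1%. The sides given for members below are read against those shares. With YAP5SA in A431, 0 of 8 were called, against 0.0% of all genes (0.0% in each direction), although 828 genes had an unadjusted p under 0.05. FOSL1 was the member among those 828, and DESeq2 called 0 members and 3 genes in all. YAP1 itself was not called there by edgeR (4.36 ± 0.65, log2, SE, FDR = 0.197). A missing call in this comparison therefore cannot show that a gene did not respond. With YAP5SA in HaCaT, 2 of 8 were called, both higher, against 13.6% of all genes (6.99% higher, 6.64% lower).

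**Figure D1:**
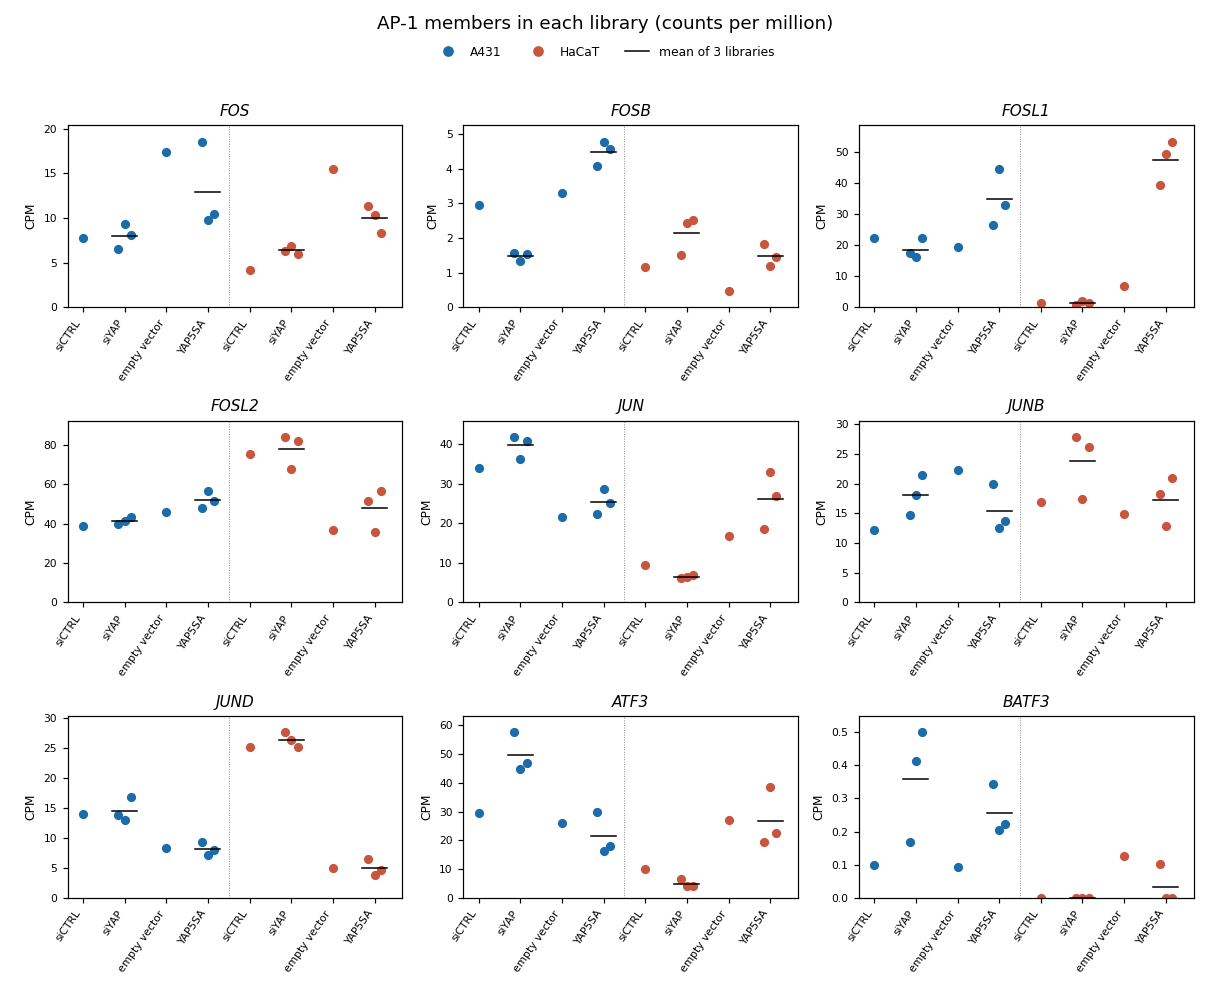
Level of each AP-1 member in CPM (y axis, linear, from 0, its own range in each panel) in each library, by treatment (x axis) in A431 (blue) and HaCaT (red). Points are libraries and lines the mean of 3 libraries. FOSL1 lies between 39.4 and 53.4 CPM in the 3 HaCaT libraries with YAP5SA and at 6.78 CPM with empty vector.

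FOSL1 encodes FRA-1, a FOS protein without the strong activation domain of FOS that is often high in invasive epithelial cells. In HaCaT it stood at 1.26 CPM with siCTRL, at 0.658, 1.85 and 1.32 CPM with siYAP, at 6.78 CPM with empty vector and at 39.4, 49.5 and 53.4 CPM with YAP5SA. The 3 libraries with YAP5SA lay far above all other HaCaT libraries, and siYAP libraries fell on both sides of siCTRL. YAP5SA raised FOSL1 by 2.81 ± 0.41 on the log2 scale (SE, 3 libraries against 1, edgeR FDR = 0.00325), which is 6.99-fold, higher in 3 of 3 libraries. In A431 it stood at 22.2 CPM with siCTRL, at 17.3, 16.1 and 22.2 CPM with siYAP, at 19.5 CPM with empty vector and at 26.6, 44.7 and 33.1 CPM with YAP5SA. All 3 A431 libraries with YAP5SA were above empty vector, and the difference of 0.84 ± 0.36 (log2, SE) was not called (edgeR FDR = 0.803). Over both lines together FOSL1 was higher with YAP5SA by 1.82 ± 0.27 (log2, SE, edgeR FDR = 0.00826). The order of the group means ran from HaCaT with YAP5SA (47.4 ± 7.22 CPM, SD, n = 3) over A431 with YAP5SA (34.8 ± 9.15 CPM, SD, n = 3) and the other A431 groups to HaCaT with empty vector and the HaCaT siRNA arm. The 2 YAP5SA groups overlapped, as did siCTRL and siYAP within each line.

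Whether YAP5SA moved FOSL1 more in HaCaT than in A431 depended on the test. The difference of the 2 effects was 1.97 ± 0.50 (log2, SE) with an edgeR FDR of 0.0699. It was called by DESeq2 (FDR = 0.0047), by the likelihood ratio test (FDR = 0.00731), and without A431 YAP5SA replicate 1 (edgeR FDR = 0.0458) or HaCaT YAP5SA replicate 1 (edgeR FDR = 0.0399).

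FOSB, an immediate early member with a strong activation domain, was low throughout. In HaCaT it was at 1.15 CPM with siCTRL, at 1.51, 2.43 and 2.51 CPM with siYAP, at 0.478 CPM with empty vector and at 1.82, 1.18 and 1.45 CPM with YAP5SA. The empty vector library held 15 read pairs of FOSB, fewer than any other library, and the YAP5SA libraries lay in the range of the HaCaT siRNA arm. Against that control YAP5SA raised FOSB by 1.63 ± 0.46 (log2, SE, edgeR FDR = 0.0331), higher in 3 of 3 libraries. The call was lost without A431 YAP5SA replicate 3 (FDR = 0.0544), without HaCaT YAP5SA replicate 3 (FDR = 0.0571), without a count filter (FDR = 0.0509), with HaCaT fitted alone (FDR = 0.123) and with siCTRL and empty vector joined as 2 controls (0.91 ± 0.39, FDR = 0.134). In A431 FOSB was at 2.94 CPM with siCTRL, at 1.58, 1.34 and 1.55 CPM with siYAP, at 3.31 CPM with empty vector and at 4.09, 4.78 and 4.56 CPM with YAP5SA. There the siYAP libraries were below siCTRL, the YAP5SA libraries were above empty vector, and neither difference was called by edgeR (-0.98 ± 0.37, FDR = 0.142 and 0.44 ± 0.38, FDR = 0.855, log2, SE). In HaCaT the siYAP libraries were above siCTRL by 0.90 ± 0.43 (log2, SE, edgeR FDR = 0.261), which became 1.44 and was called with 2 controls (FDR = 0.0217). The 2 controls are from different arms, and siCTRL was 2.40-fold above empty vector for FOSB in HaCaT. That value therefore mixes the arm with the knockdown. Over both lines YAP5SA went with a FOSB difference of 1.03 ± 0.30 (log2, SE) that edgeR did not call (FDR = 0.0812) and DESeq2 did (FDR = 0.0392).

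FOS, the best known immediate early member, was at 7.79 CPM with siCTRL and at 6.51, 9.34 and 8.03 CPM with siYAP in A431, and at 4.20 CPM with siCTRL and at 6.31, 6.85 and 6.01 CPM with siYAP in HaCaT. In the vector arm it was at 17.4 CPM with empty vector and at 18.5, 9.81 and 10.4 CPM with YAP5SA in A431, and at 15.5 CPM and at 11.3, 10.3 and 8.29 CPM in HaCaT. All 3 HaCaT libraries with YAP5SA were below empty vector, by 0.64 ± 0.32 on the log2 scale (SE), which was not called (edgeR FDR = 0.188). In HaCaT the siYAP libraries lay above siCTRL, again without a call (0.60 ± 0.37, log2, SE, edgeR FDR = 0.403). With siCTRL and empty vector joined as 2 controls, both HaCaT directions turned, to 0.004 with YAP5SA and -0.64 with siYAP. That setting brings in the control of the other arm, and empty vector was 3.70-fold above siCTRL for FOS in HaCaT. The turn therefore cannot tell the arm from the single control library. The highest values of FOS were those of both empty vector libraries and of A431 YAP5SA replicate 1, whose counts also differed from those of the other 2 replicates more than these did from each other (chi-square per degree of freedom of 72.9 and 67.4 against 6.4). Over both lines the difference with YAP5SA was -0.53 ± 0.23 (log2, SE, edgeR FDR = 0.201) and was called without that library (-0.71, FDR = 0.0286).

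FOSL2 encodes FRA-2, which like FRA-1 lacks the strong activation domain. It was the steadiest FOS gene in A431, at 38.8 to 43.5 CPM in the siRNA arm and 46.0 to 56.5 CPM in the vector arm. In HaCaT it was at 67.7 to 83.9 CPM in the siRNA arm, at 36.9 CPM with empty vector and at 51.4, 35.5 and 56.6 CPM with YAP5SA. No comparison with a control was called. Without HaCaT YAP5SA replicate 2, its lowest library, the difference from empty vector became 0.55 ± 0.16 (log2, SE, edgeR FDR = 0.0381).

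JUN, the founding member and a strong activator, was at 34.1 CPM with siCTRL and at 41.8, 36.4 and 40.9 CPM with siYAP in A431, and at 9.45 CPM with siCTRL and at 6.15, 6.56 and 6.90 CPM with siYAP in HaCaT. Against siCTRL the siYAP libraries were thus all higher in A431 and all lower in HaCaT, and neither difference was called (0.22 ± 0.25, FDR = 0.667 and -0.53 ± 0.27, FDR = 0.288, log2, SE, edgeR). With 2 controls the HaCaT value became -1.01 and was called (FDR = 0.0204). Those controls are from different arms, and empty vector was 1.78-fold above siCTRL for JUN in HaCaT. Any 2-control value of JUN in HaCaT therefore mixes the arm with the treatment. In the vector arm the lines lay together, at 21.6 CPM with empty vector and at 22.4, 28.8 and 25.1 CPM with YAP5SA in A431, and at 16.8 CPM and at 18.5, 32.9 and 26.8 CPM in HaCaT. All YAP5SA libraries were above their control. The HaCaT difference of 0.63 ± 0.26 (log2, SE) was not called (edgeR FDR = 0.118), and was called without HaCaT YAP5SA replicate 1 (0.83, FDR = 0.0123) and with siCTRL and empty vector joined as 2 controls (0.98, FDR = 0.0349). Over both lines the same library decided the call (0.53, FDR = 0.0306 without it, against FDR = 0.197 with it).

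JUNB, a weaker activator that can restrain JUN, stayed within 12.2 to 27.8 CPM in all 16 libraries and was not called in any comparison. The siYAP libraries were above siCTRL in all 3 of each line, by 0.57 ± 0.36 in A431 (edgeR FDR = 0.377) and 0.50 ± 0.35 in HaCaT (edgeR FDR = 0.475), both log2 with SE, and A431 with YAP5SA had a value of -0.54 ± 0.33 against empty vector (edgeR FDR = 0.818). With 2 controls these A431 values went to 0.07 and -0.17. Exons of JUNB overlap those of HOOK2 on the opposite strand, and whether the libraries kept strand is not given in the sources used here, so reads of these 2 genes may not have been kept apart.

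JUND, the member usually present in resting cells, was higher in the siRNA arm than in the vector arm of each line. In HaCaT it was at 25.1 CPM with siCTRL and at 27.5, 26.3 and 25.1 CPM with siYAP, but at 5.03 CPM with empty vector and at 6.43, 3.82 and 4.61 CPM with YAP5SA. In A431 it was at 13.0 to 16.8 CPM in the siRNA arm and at 7.07 to 9.34 CPM in the vector arm. The arms did not overlap in either line, and within an arm siYAP and YAP5SA libraries lay on both sides of their control, apart from siYAP in HaCaT, where all 3 were above siCTRL by a narrow margin. The differences from a control ran from -0.04 to 0.07 on the log2 scale, none of them called. With siCTRL and empty vector joined as 2 controls JUND was called with YAP5SA in HaCaT. There siCTRL was 4.98-fold above empty vector, so that call mixes the arm with YAP5SA.

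ATF3, a stress-induced repressor, was at 29.6 CPM with siCTRL and at 57.5, 44.7 and 47.001 CPM with siYAP in A431, and at 10.0 CPM with siCTRL and at 6.58, 4.18 and 4.06 CPM with siYAP in HaCaT. The siYAP libraries were therefore all above siCTRL in A431 (0.75 ± 0.41, edgeR FDR = 0.311) and all below it in HaCaT (-1.02 ± 0.42, edgeR FDR = 0.186), both log2 with SE and both not called. With siCTRL and empty vector joined as 2 controls the HaCaT value became -1.91 and was called (FDR = 0.00661). Empty vector was 2.69-fold above siCTRL for ATF3 in HaCaT, so that value mixes the arm with the knockdown. With empty vector and YAP5SA it was at 25.8 CPM and at 29.8, 16.3 and 17.96 CPM in A431, and at 27.1 CPM and at 19.2, 38.5 and 22.7 CPM in HaCaT. These libraries lay on both sides of their control in each line. BATF3, a small partner of JUN known from dendritic cells, had 2 to 12 read pairs in each A431 library. In HaCaT it had 4 read pairs with empty vector, 4, 0 and 0 with YAP5SA and 0 in all 4 libraries of the siRNA arm, where a count of 0 allows 0.104 to 0.166 CPM. Its A431 siYAP and YAP5SA libraries had 5 to 12 read pairs against 2 in each A431 control, which is too few for a test.

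**Figure D2:**
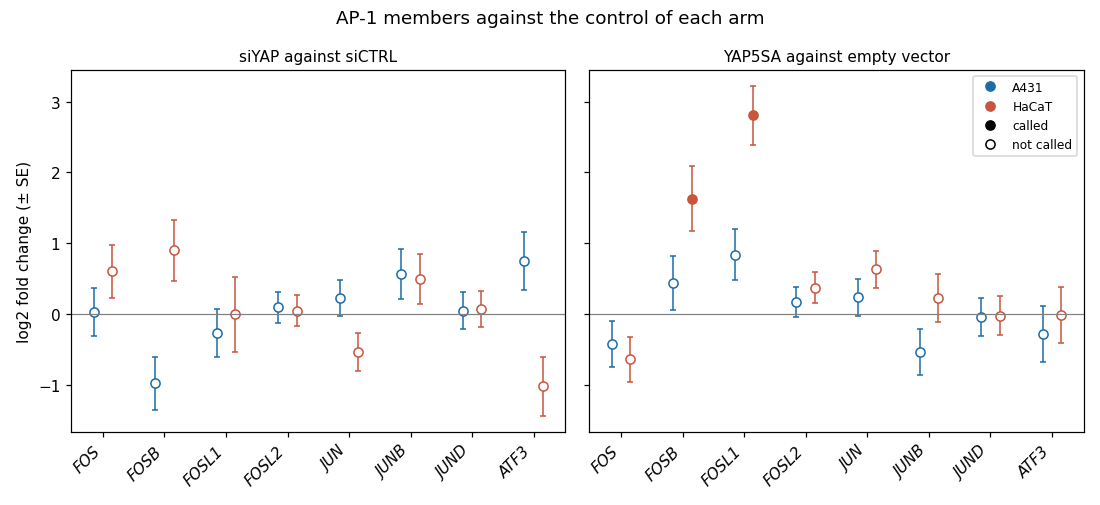
Log2 fold change of 8 AP-1 members (y axis, with bars of 1 SE) for siYAP against siCTRL (left) and YAP5SA against empty vector (right) in A431 (blue) and HaCaT (red). Filled points were called by edgeR, which holds for FOSL1 and FOSB with YAP5SA in HaCaT.

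Set side by side, the members did not move together against their controls. The median log2 fold change of the 8 members was 0.07 with siYAP in A431, 0.06 with siYAP in HaCaT, 0.07 with YAP5SA in A431 and 0.30 with YAP5SA in HaCaT, where the medians of all genes were 0.03, 0.03, 0.02 and 0.01. Members not called and under 0.5 in size lay between -0.26 and 0.22 with siYAP in A431. They lay between -0.43 and 0.44 with YAP5SA in A431 and between -0.02 and 0.37 with YAP5SA in HaCaT. Over both lines 0 of 8 members were called with siYAP (13.0% of all genes), with 0 at an unadjusted p under 0.05 and 0 by DESeq2. With YAP5SA over both lines 1 of 8 was called (FOSL1, against 2.04% of all genes). The difference of the siYAP effect between the lines was called for 0 of 8 members (0.17% of all genes). At an unadjusted p under 0.05 these were 2, FOSB (1.88 ± 0.57) and ATF3 (-1.77 ± 0.59, log2, SE), against 11.5% of all genes, and DESeq2 called 0. The difference of the YAP5SA effect was called for 0 of 8 by edgeR (0.0886% of all genes), with FOSL1 alone at an unadjusted p under 0.05, against 22.4% of all genes.

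The comparison of YAP5SA with siYAP, which sets high against low YAP1 with 3 libraries on each side, gave many more calls. In A431 6 of 8 members were called, where 34.6% of all genes were, and in HaCaT 6 of 8, where 60.0% were. In A431 FOSB (1.58 ± 0.27, FDR = 0.000687), FOSL1 (0.91 ± 0.24, FDR = 0.0104) and FOS (0.70 ± 0.24, FDR = 0.0351) were higher with YAP5SA, and ATF3 (-1.22 ± 0.28, FDR = 0.00457), JUND (-0.84 ± 0.19, FDR = 0.00392) and JUN (-0.64 ± 0.18, FDR = 0.0125) were lower (edgeR, log2, SE). In HaCaT FOSL1 was higher by 5.24 ± 0.31 (FDR = 1.67e-08), ATF3 by 2.44 ± 0.31 (FDR = 1.15e-05), JUN by 1.99 ± 0.19 (FDR = 9.27e-07) and FOS by 0.64 ± 0.24 (FDR = 0.0292), while JUND was lower by 2.41 (SE 0.19, log2 fold change -2.41, FDR = 2.18e-07) and FOSL2 had a value of -0.70 ± 0.15 (FDR = 0.00108). JUN and ATF3 were thus lower with YAP5SA in A431 and higher in HaCaT. FOSB in HaCaT was at -0.53 ± 0.27 (edgeR FDR = 0.0974). The call of FOS was lost in A431 without siYAP replicate 1 (FDR = 0.129), siYAP replicate 3 (FDR = 0.0841) or YAP5SA replicate 1 (FDR = 0.166), and in HaCaT without siYAP replicate 1 or 3 or YAP5SA replicate 1 or 2 (FDR = 0.0719, 0.0774, 0.0853 and 0.056). FOSL1 in A431 was not called without YAP5SA replicate 2 (FDR = 0.0586). FOSB in HaCaT was called without siYAP replicate 1 (FDR = 0.0342), JUNB in HaCaT without siYAP replicate 2 (FDR = 0.0341), and FOSL2 in A431 without HaCaT YAP5SA replicate 2 (FDR = 0.0264).

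This comparison also crosses the 2 arms, and the controls of the arms differed in all 6 genes called in HaCaT and in part of those called in A431. In HaCaT, empty vector against siCTRL was 5.40-fold for FOSL1, 3.70-fold for FOS, 2.69-fold for ATF3 and 1.78-fold for JUN. In the other direction siCTRL was 4.98-fold above empty vector for JUND, 2.40-fold for FOSB and 2.04-fold for FOSL2. In A431 empty vector was 2.23-fold above siCTRL for FOS and 1.83-fold for JUNB, and siCTRL was 1.69-fold above empty vector for JUND and 1.58-fold for JUN. JUNB was not among the A431 calls. For the other A431 calls the gap between the controls was small, with empty vector over siCTRL at 1.125 for FOSB, 0.877 for FOSL1 and 0.872 for ATF3, which for FOSL1 is opposite to the direct comparison. These are ratios of 1 library to 1, with no replicate check. Arm and YAP1 level cannot be told apart in the direct comparison.

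With siYAP and YAP5SA each taken relative to the control of its arm, as a difference of differences, 0 of 8 members were called in A431 and 1, FOSL1, in HaCaT (2.81 ± 0.67, edgeR FDR = 0.0227, log2, SE). JUND went to -0.09 ± 0.38 in HaCaT (FDR = 0.917) and to -0.08 ± 0.38 in A431 (FDR = 0.933). FOS changed sign in both lines, to -0.46 ± 0.48 in A431 and -1.24 ± 0.49 in HaCaT (edgeR FDR = 0.625 and 0.128), and so did JUN in A431 (0.02 ± 0.36, FDR = 0.999), FOSL2 in HaCaT (0.33 ± 0.30, FDR = 0.525) and FOSB in HaCaT (0.72 ± 0.61, FDR = 0.478). JUN and ATF3 in HaCaT kept a positive sign without a call (1.16 ± 0.37, FDR = 0.0676 and 1.01 ± 0.58, FDR = 0.29), and in A431 FOSB and FOSL1 did likewise (1.42 ± 0.54, FDR = 0.167 and 1.101 ± 0.49, FDR = 0.226). JUNB and ATF3 in A431 had negative values without a call (-1.10 ± 0.49, FDR = 0.221 and -1.03 ± 0.56, FDR = 0.322). This form of the comparison rests on both single controls.

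**Figure D3:**
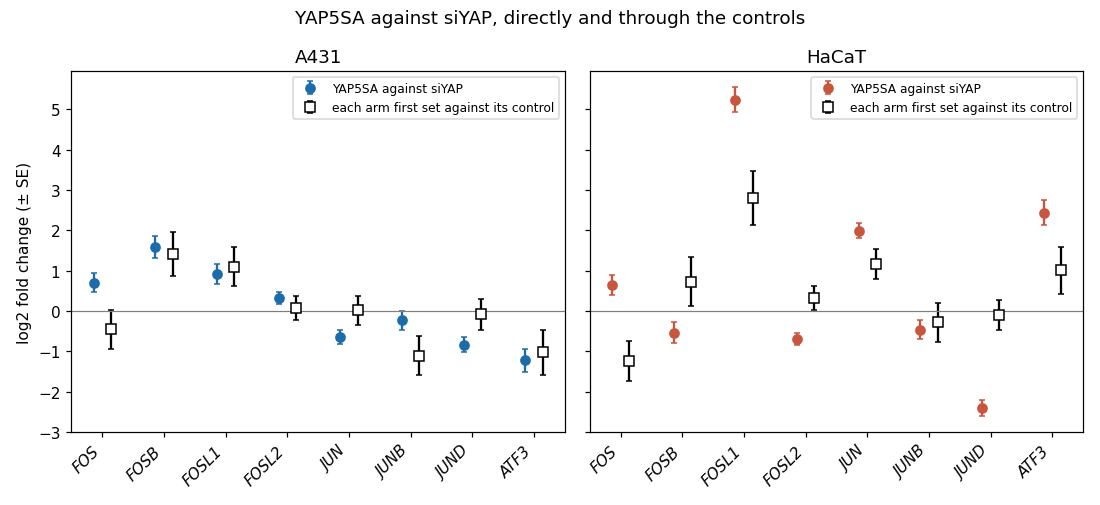
Log2 fold change of 8 AP-1 members for YAP5SA against siYAP (y axis, with bars of 1 SE), taken directly (filled circles) and as the effect of YAP5SA minus the effect of siYAP, each against its own control (open squares), in A431 (left) and HaCaT (right). JUND in HaCaT moves from -2.41 to -0.09, and FOSL1 from 5.24 to 2.81.

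Between HaCaT and A431 with siYAP 5 of 8 members were called, a share near that of all genes (58.6%). FOSL1 (-3.88 ± 0.30, FDR = 1.26e-07), ATF3 (-3.33 ± 0.31, FDR = 7.29e-07) and JUN (-2.60 ± 0.19, FDR = 7.39e-08) were lower in HaCaT, and FOSL2 (0.91 ± 0.15, FDR = 0.000142) and JUND (0.86 ± 0.18, FDR = 0.00101) were higher (edgeR, log2, SE). FOSB was at 0.53 ± 0.28 (FDR = 0.107) and was called without HaCaT siYAP replicate 1 (FDR = 0.0374). With YAP5SA 2 of 8 were called, where 50.2% of all genes were. FOSB (-1.59 ± 0.27, FDR = 0.000222) and JUND (-0.71 ± 0.19, FDR = 0.00643) were lower in HaCaT. FOSL1 and JUN were here at 0.45 ± 0.24 (FDR = 0.128) and 0.04 ± 0.18 (FDR = 0.878), and FOSL1 was called without A431 YAP5SA replicate 2 (FDR = 0.0438).

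Levels of different genes were compared per length, as CPM per kilobase of the gene's exons in GENCODE v29. Over the 16 libraries the medians were 11.03 for FOSL1, 9.77 for JUNB, 6.93 for FOSL2, 6.71 for JUN, 6.01 for ATF3, 6.002 for JUND, 2.72 for FOS, 0.306 for FOSB and 0.037 for BATF3. FOSL1 had the widest range of the tested members, 81.2-fold between its lowest and highest CPM, and JUNB the narrowest at 2.28-fold. In the HaCaT siRNA arm FOSL1 was at only 0.349 to 0.978 per kilobase, so the order of the medians does not hold in each group. Neighbours in this order from JUNB to JUND overlapped over most of their ranges. The place of ATF3 depended on the length taken, with a median of 11.5 per kilobase of its longest transcript, where FOS was at 4.08 and FOSB at 0.45.

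In A431 FOSL1 was the largest part of the summed FOS family in all 8 libraries, with 45.4% to 66.8%. In the siRNA arm of HaCaT FOSL2 held 72.8% to 82.9% and FOSL1 2.4% to 7.5%. With empty vector in HaCaT FOSL2 held 37.8%, FOS 35.2% and FOSL1 26.4%, an order that depended on the length taken, since FOS led with 42.6% against 32.6% for FOSL2 per kilobase of the longest transcript. With YAP5SA in HaCaT FOSL1 held 65.5%, 75.8% and 72.5%. The summed FOS family was at 12.7 to 14.4 CPM per kilobase in the 5 other HaCaT libraries and at 31.9 to 39.0 with YAP5SA. In the JUN family JUND held 45.2% to 55.2% and JUN 5.5% to 10.5% in the siRNA arm of HaCaT. In its vector arm JUND held 11.1% to 18.5% and JUN 27.9% to 50.6%. In A431 each JUN gene held 19.5% or more in every library.

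**Figure D4:**
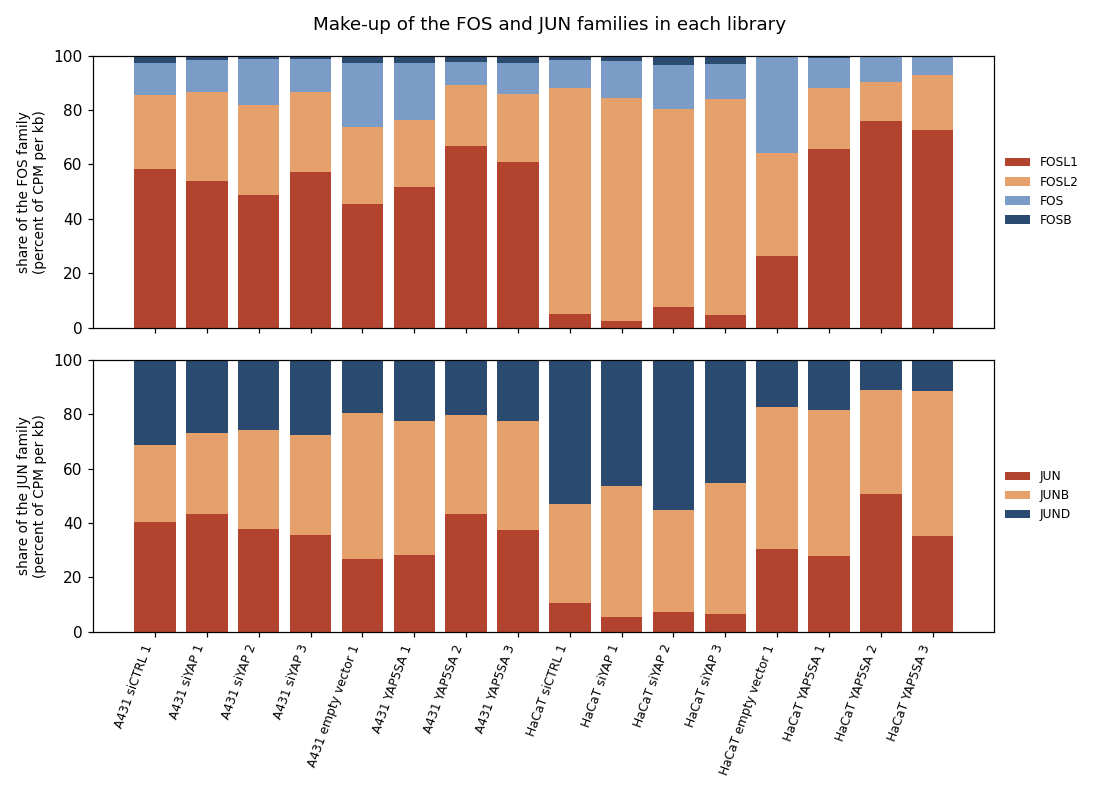
Share of each gene in its family (y axis, percent of summed CPM per kilobase) in each of the 16 libraries (x axis) for the FOS family (top) and the JUN family (bottom). FOSL2 fills 72.8% to 82.9% of the FOS bar in the HaCaT siRNA arm, and FOSL1 65.5% to 75.8% with YAP5SA in HaCaT.

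Among all genes above 1 on the log2 CPM scale, those with the pattern most like a member's were sought by the Pearson r of log2 CPM over the 16 libraries, centred within each line. This is a description without a test, and the libraries share the split between the arms of HaCaT. The nearest genes were VAV2 (r = 0.985), KIF18B and ANKRD1 (both 0.981) for FOSL1, FBXL20, MAML2 and VGLL4 (all 0.988) for JUND, and GEMIN5 (0.991), SLC25A32 (0.97) and C1orf109 (0.968) for JUN. SNX33 (0.973), ATP6AP1 (0.963) and EPS8L2 (0.945) were nearest to FOSL2, NFXL1 (0.95), CDK7 (0.945) and THUMPD2 (0.941) to ATF3, and IFI27L1 (0.941), TMEM107 (0.936) and SEC14L2 (0.935) to FOS. The likeness was lower for JUNB (MC1R, 0.881, GPRC5C, 0.876, and PELI3, 0.87) and for FOSB (VOPP1, 0.844, CLEC16A, 0.836, and MOB3A, 0.832). Between members by the same measure, JUN and ATF3 had an r of 0.898 and FOSL1 and JUN of 0.83, while FOSL1 and JUND had -0.898 and FOSL2 and ATF3 -0.865.

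Of 11 other basic leucine zipper partners 8 were tested. With siYAP 0 were called in A431 (5.6% of all genes) and 1 in HaCaT (5.67%), and with YAP5SA 0 were called in A431 (0.0%) and 4 in HaCaT (13.6%), 3 of them higher. The HaCaT genes were MAF, which was 2.68 CPM with siCTRL and 8.59 to 13.3 CPM with siYAP (log2 fold change 2.12 ± 0.55, edgeR FDR = 0.0377), and which was 4.33 CPM with empty vector and 0.545 to 1.38 CPM with YAP5SA (-2.26 ± 0.45, FDR = 0.0101). MAFG, a small MAF protein, rose with YAP5SA from 15.3 to between 31.6 and 42.0 CPM (1.30 ± 0.22, FDR = 0.00559). The median of the list with YAP5SA in HaCaT was 0.54, against 0.01 for all genes. The siYAP call of MAF was lost with each line fitted alone (FDR = 0.0829), without either of HaCaT siYAP replicates 2 and 3 (FDR = 0.0821 and 0.0943), without any of the 3 A431 siYAP libraries (FDR = 0.0529, 0.0568 and 0.0579) or A431 YAP5SA replicate 2 (FDR = 0.0517). In YAP5SA against siYAP, where 34.6% of all genes were called in A431 and 60.0% in HaCaT, 4 fell in A431, with MAFF (-0.73 ± 0.18, edgeR FDR = 0.00621) and MAFK (-0.59 ± 0.18, FDR = 0.0194) the furthest, and 2 rose and 4 fell in HaCaT, with MAF (-3.68 ± 0.37, FDR = 1.69e-06) and ATF7 (-1.44 ± 0.18, FDR = 1.25e-05) the furthest. MAFK was not called without A431 siYAP replicate 2 or 3 or YAP5SA replicate 3 (FDR = 0.06, 0.0958 and 0.0511). Against their own controls, MAFF lay at -0.13, MAFK at -0.67 and ATF7 at -0.23, none called, while MAF in HaCaT kept its call.

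Among 19 kinases and regulators upstream of AP-1, all tested, siYAP lowered 2 in A431 (5.6% of all genes called) and 0 in HaCaT (5.67%), and YAP5SA changed 0 in A431 (0.0%) and 8 in HaCaT (13.6%), 6 higher and 2 lower. ELK4, a partner of SRF, fell with siYAP in A431 from 233 to between 124 and 137 CPM (-0.86 ± 0.16, edgeR FDR = 0.0104), a call lost with siCTRL and empty vector joined as 2 controls (-0.64, FDR = 0.325). Here and in the lists below, the 2 controls are from different arms, so such values mix the arm with the treatment. RFWD2, which encodes the JUN ubiquitin ligase COP1, fell from 92.5 to between 64.1 and 67.2 CPM (-0.50 ± 0.13, FDR = 0.0363). RFWD2 was not called with 2 controls (-0.40, FDR = 0.14), without a count filter (FDR = 0.074), without any 1 of the 3 A431 siYAP libraries (FDR = 0.0789, 0.0631 and 0.0975), nor without A431 YAP5SA replicates 2 or 3 or HaCaT siYAP replicates 1 or 3 (FDR = 0.0505, 0.0573, 0.0595 and 0.0524). In HaCaT with YAP5SA the kinase gene MAPK7 rose from 1.69 to between 4.99 and 7.01 CPM (1.75 ± 0.43, FDR = 0.0201), a call lost with each line fitted alone (FDR = 0.0517) and with 2 controls (0.95, FDR = 0.125). MEF2D, a transcription factor that acts on JUN, rose from 2.96 to between 6.46 and 9.94 CPM (1.46 ± 0.30, FDR = 0.0104), a direction that turned to -0.61 with siCTRL and empty vector joined as 2 controls. The median of the list in that comparison was 0.11. In YAP5SA against siYAP, 5 rose and 3 fell in A431 (34.6% of all genes called) and 4 rose and 6 fell in HaCaT (60.0%). The furthest were MAP2K7 (-0.61 ± 0.16, FDR = 0.00848) and MAP3K1 (-0.54 ± 0.11, FDR = 0.00229) in A431, and ELK4 (-1.82 ± 0.13, FDR = 5.23e-08) and MAP2K1 (1.73 ± 0.10, FDR = 1.74e-08) in HaCaT. MAP2K7 lay at -1.05 (FDR = 0.0968), MAP3K1 at 0.006, ELK4 at -0.32 and MAP2K1 at 0.11, none called, when each arm was set against its own control.

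Immediate early genes outside AP-1, 18 in number and all tested, showed 2 rises and 3 falls with siYAP in A431 (5.6% of all genes called) and 0 rises and 1 fall in HaCaT (5.67%). DUSP1, a phosphatase of JNK and p38, rose in A431 from 4.36 to between 14.2 and 17.98 CPM (1.90 ± 0.40, edgeR FDR = 0.0157), and EGR1 fell from 48.1 to between 15.7 and 20.4 CPM (-1.45 ± 0.32, FDR = 0.021). The call of EGR1 was lost without A431 siYAP replicate 1 (FDR = 0.0574) or 2 (FDR = 0.0585). MCL1, which blocks apoptosis, fell in HaCaT from 392 to between 204 and 208 CPM (-0.92 ± 0.12, FDR = 0.00101). With YAP5SA 0 were called in A431 (0.0% of all genes), and in HaCaT (13.6%) 5 rose and 1 fell, among them NR4A1 (0.573 to between 1.89 and 2.61 CPM, 1.92 ± 0.47, FDR = 0.0204) and ZFP36 (1.43 to between 3.39 and 4.07 CPM, 1.39 ± 0.31, FDR = 0.013). NR4A1 and ZFP36 were not called with each line fitted alone (FDR = 0.0659 and 0.0601), and ZFP36 lay at 0.23 with 2 controls (FDR = 0.712). The median of the list there was 0.30. In YAP5SA against siYAP, 5 rose and 5 fell in A431 (34.6% of all genes called), led by MCL1 (1.36 ± 0.09, FDR = 1.4e-06) and DUSP1 (-1.11 ± 0.25, FDR = 0.00364), and 10 rose and 2 fell in HaCaT (60.0%), led by SGK1 (4.41 ± 0.41, FDR = 6.98e-07) and DUSP6 (3.70 ± 0.19, FDR = 5.91e-09). SGK1 lay at -0.78, DUSP6 at 0.30 and DUSP1 in A431 at -1.33 (FDR = 0.171), none called, when each arm was set against its own control. MCL1 in A431 kept its call in that form.

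Genes described as AP-1 targets numbered 24, of which 23 were in the table by symbol and 20 were tested. With siYAP 2 rose and 1 fell in A431 (5.6% of all genes called) and 0 were called in HaCaT (5.67%). TIMP1, an inhibitor of matrix proteases, rose in A431 from 54.1 to between 89.1 and 105 CPM (0.83 ± 0.20, edgeR FDR = 0.0325), a call lost without any 1 of the A431 siYAP libraries (FDR = 0.0531, 0.0585 and 0.092) or HaCaT siYAP replicate 1 (FDR = 0.0514), with each line fitted alone (FDR = 0.0589) and with 2 controls (0.42, FDR = 0.361). The cytokine gene IL6 was also called there, from 0.098 CPM in 1 control library to between 1.95 and 2.96 CPM, too few reads for a fold. That call too was lost with 2 controls (FDR = 0.369), without any 1 of the A431 siYAP libraries (FDR = 0.088, 0.0637 and 0.0799) and without A431 YAP5SA replicates 2 or 3, HaCaT siYAP replicate 1 or HaCaT YAP5SA replicate 3 (FDR = 0.0559, 0.0638, 0.0531 and 0.0585). With YAP5SA 0 were called in A431 (0.0% of all genes), and in HaCaT (13.6%) 4 rose and 1 fell, at a median of the list of 0.32. The collagenase gene MMP13 fell from 92.6 to between 4.85 and 21.6 CPM (-3.08 ± 0.72, FDR = 0.0173), a call lost without HaCaT YAP5SA replicate 3 (FDR = 0.0506). HMGA1, a chromatin protein gene, rose from 31.5 to between 104 and 132 CPM (1.88 ± 0.22, FDR = 0.00094). Its call was lost with 2 controls (0.79, FDR = 0.134), a setting that mixes the arm with YAP5SA. In YAP5SA against siYAP, 1 rose and 4 fell in A431 (34.6% of all genes called) and 10 rose and 2 fell in HaCaT (60.0%). MMP13 was lower in both lines (-3.94 ± 0.68, FDR = 0.000695 in A431 and -3.25 ± 0.61, FDR = 0.000374 in HaCaT), and MMP1 was lower in A431 (-1.80 ± 0.57, FDR = 0.0251). Against the control of each arm, MMP13 in A431 (-1.82, FDR = 0.438) and MMP1 in A431 (FDR = 0.277) were not called, nor was IL6 in HaCaT (FDR = 0.195). MMP13 in HaCaT kept its call in that form. IL6 in HaCaT lay between 0.0 and 0.194 CPM with siYAP and between 10.4 and 36.8 CPM with YAP5SA. The call of MMP1 was lost without A431 siYAP replicates 2 or 3 (FDR = 0.0848 and 0.0509) or YAP5SA replicates 2 or 3 (FDR = 0.059 and 0.109).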

How the data were processed

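RNA from A431 and HaCaT cells was sequenced by the authors as paired reads, trimmed and assigned to RefSeq gene models with RSEM, and deposited as estimated counts per gene that were neither scaled nor filtered. The labels name hg19. The methods and the labels give different RSEM versions, and neither is used here. Of the 26229 listed genes, 28 carried symbols turned into dates and 4 shared a symbol. They stayed in the totals, and none is named.

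Estimated counts were rounded and analysed with edgeR 4.0.16 in R 4.3.3 (limma 3.58.1). Low genes were dropped unless their counts averaged over 10 across the libraries, which left 14673. TMM factors lay between 0.9135 and 1.0741, and 1 model with 8 groups left 8 residual degrees of freedom. Comparisons were tested by quasi-likelihood with a prior count of 0.125, and p values were adjusted by Benjamini-Hochberg over all genes. Calls needed an FDR below 0.05 together with a logCPM over 1, as in the study. Each SE was obtained by dividing the absolute log2 fold change by the square root of F. CPM uses TMM-scaled totals. The script was tested on simulated counts. Other tools were Python 3.11.15 with pandas 2.3.3, numpy 2.4.6, scipy 1.17.1 and matplotlib 3.10.9.

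The labels say that experiments were done in triplicate except for the controls. Treated replicates differed beyond sampling noise in every pair (chi-square per degree of freedom of 6.4 to 134), so none was counted as a repeat. Samples were grouped by their labels. The members, the 4 gene lists and the marker lists were chosen with earlier results of these data known. From each list, up to 2 called genes with the largest absolute log2 fold change were named in each comparison of siYAP with siCTRL, of YAP5SA with empty vector and of YAP5SA with siYAP, within a line, beside all members, YAP1 and EGFR. Most member log2 fold changes that were called or at least 0.5 in size were given singly, as were others that a comparison needed. Part of the remaining values were given as a range. The alternatives comprised DESeq2 1.42.0, scaling by RLE, the likelihood ratio test, calls on FDR alone, leaving the count filter out or asking for over 10 counts in all libraries, and fits of a single line. Others joined siCTRL with empty vector as 2 controls, took the difference of differences, added a replicate block, left out each treated library in turn or, for levels, used the longest transcript. The fit of the 12 treated libraries without the block was added after the data had been seen.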

Additional observations from a re-analysis of the deposited data

Results flagged for a closer look

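For 3 AP-1 members the siYAP libraries lay on opposite sides of siCTRL in the 2 lines, with every siYAP library of a line on the same side of its control. Over all tested genes, all 3 siYAP libraries lay on one side of siCTRL for 72.4% in A431 and 69.7% in HaCaT. How many of all genes lay on opposite sides in the 2 lines in this way was not counted. For each of the 3 members the test of the difference between the lines did not pass, and each line had 1 siCTRL library.

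FOSB lay below siCTRL in A431 and above it in HaCaT, and the difference of the effects (HaCaT minus A431) was 1.88 ± 0.57 on the log2 scale (SE, edgeR FDR = 0.219). ATF3 lay above siCTRL in A431 and below it in HaCaT, with a difference of -1.77 ± 0.59 (edgeR FDR = 0.264). JUN had the same directions as ATF3, with a difference of -0.75 ± 0.37 (edgeR FDR = 0.472).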

How the results depend on the processing

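The number of members called stayed within 1.5 times its main value in 225 of 240 combinations of a comparison and an alternative. Many of these were 0 against 0, and the measure does not see a change in which members were called. With siYAP in HaCaT the number called went from 0 to 4 (ATF3, FOSB, FOSL1 and JUN) with siCTRL and empty vector as 2 controls. That setting joins controls of different arms, so arm and control library cannot be told apart in it. With YAP5SA in HaCaT the number was 1 (FOSL1) without a count filter or with each line fitted alone, and 1 to 3 with a library left out. With 2 controls it was 3 (FOSL1, JUN and JUND), with FOSB no longer called. With YAP5SA over both lines it was 2 by DESeq2 and by the likelihood ratio test (FOSB and FOSL1), and 1 to 2 with a library left out. The difference of the YAP5SA effect was called for 1 member (FOSL1) by DESeq2 and by the likelihood ratio test, and for 0 to 1 with a library left out. As a difference of differences, YAP5SA against siYAP gave 0 calls in A431 and 1 in HaCaT, where the arms are compared only with their own control. The cause was not tested for the others.

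Of 1681 refits of 82 single-gene values, 11 changed sign. With siCTRL and empty vector as 2 controls these were FOS in HaCaT with siYAP (-0.64) and YAP5SA (0.004), FOS over both lines with YAP5SA (0.021) and MEF2D in HaCaT with YAP5SA (-0.61). As differences of differences in A431 they were FOS (-0.46), JUN (0.017) and MAP3K1 (0.006), and in HaCaT FOS (-1.24), FOSB (0.72), FOSL2 (0.33) and SGK1 (-0.78). A further 81 lost a call and 23 gained one. Of the 50 member values that were not called and under 0.5 in size, 27 changed sign under some alternative.

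Counts of all called genes moved more. They ran from 198 to 1365 around 821 with siYAP in A431, from 349 to 2941 around 832 in HaCaT, from 0 to 87 around 0 with YAP5SA in A431, from 654 to 2910 around 2001 in HaCaT, from 1299 to 2933 around 1904 with siYAP over both lines, from 48 to 1367 around 300 with YAP5SA over both lines, from 6 to 257 around 25 and from 1 to 883 around 13 for the differences between lines, and down to 224 from 5076 and 1321 from 8805 as differences of differences.

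Of 18 pairs of treated libraries with the same replicate number, 6 had a correlation of deviations over 0.1 (range -0.064 to 0.398). These include all 3 pairs of A431 with HaCaT under YAP5SA (0.398, 0.162 and 0.162), the only groups whose numbers met the bar for pairing. Pairs of these groups with different numbers ran from -0.4 to 0.323, so whether the numbers mark a shared batch cannot be told. Comparisons with a control could not be blocked, since each control is 1 library. With a replicate block over the 12 treated libraries the members called were 6 in A431 and 6 in HaCaT for YAP5SA against siYAP, 5 between lines with siYAP and 2 with YAP5SA, the same numbers as without the block. Between lines with YAP5SA these were FOSB and JUND in both fits, and FOSL1 went from an FDR of 0.125 to 0.0566.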
